A study of Mus musculus with 8 samples.

Results

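VHL null mouse embryonic fibroblasts (MEFs) were compared with wild type MEFs on 4 of the 8 arrays of the series, 2 per group. MEFs are connective tissue cells grown out of mouse embryos, and these had been immortalized with large T, a viral oncoprotein that disables p53 and Rb and keeps cells dividing. The VHL null cells were made by infecting MEFs that carry conditional Vhl alleles (VHLdf) with an adenovirus for Cre recombinase. Both groups grew at 21% O2 in high glucose DMEM with serum, so oxygen and nutrients were the same for both. The other 4 arrays, 2 of FIH null and 2 of double null cells (labelled VHL/FIH null), came from FIHdf and VHLdf/FIHdf MEFs, and the contrast of those groups is used below as a second background in which VHL was lost. Hif1an is the gene of FIH, the asparaginyl hydroxylase of HIF. The labels give neither the exons removed, nor the age of the embryos, nor whether the wild type cells also met the virus. The labels name different starting MEFs for each mutant genotype and none for the wild type cells, so genotype and line of origin cannot be told apart. The replicates are labelled biological without saying whether they were separate embryos or cultures, so every p-value measures only the spread between these arrays, which may be technical.

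VHL is the substrate-binding part of a ubiquitin ligase that also holds the elongins B and C, cullin 2 and Rbx1. In cells with oxygen, the prolyl hydroxylases Egln1 to Egln3 (the PHD enzymes) hydroxylate the alpha subunits of hypoxia-inducible factor (HIF), VHL binds the hydroxylated protein, and the ligase marks it for destruction. Without VHL the alpha subunits persist in the presence of oxygen and, together with ARNT, drive genes of glucose uptake, glycolysis, matrix hydroxylation and blood vessel growth. Loss of VHL is the defining lesion of clear cell kidney cancer, whose cells are known for stores of glycogen and lipid.

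The authors' MAS5 algorithm gives a linear intensity for each probe set and brings every array to one trimmed mean, so that each change is relative to the level of its array. A gene was tested on its brightest probe set, provided that 2 or more of the 8 arrays exceeded a cutoff of 291.1 (the overall median signal). Differences are VHL null minus wild type means of log2(signal + 16), which understates the change of dim genes, with limma's standard error (SE) and an adjusted p over all 11564 genes tested. "Rose" and "fell" are used for an adjusted p under 0.05.

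Of the genes tested, 1788 rose, or 15.5%, and 3279 fell, or 28.4%, so 43.8% passed in all. The shares of 15.5% and 28.4% are the background for the counts of each list below. The lists were chosen with earlier results of these data known, so that comparison is a description and no independent test. Most changes were small: 236 genes rose and 391 fell at least 2-fold (2.04% and 3.38%). At 4-fold or more there were 65 rises and 59 falls, which are 0.562% and 0.51% of the genes tested. At 8-fold or more there were 25 rises and 12 falls (0.216% and 0.104%). Direction also went with brightness. Among the 2891 dimmest genes 5.74% rose, and among the 2891 brightest 31.1% rose, while 17.3% of the brightest fell. The median difference over all genes was -0.10, and with scaling to the spiked hybridization controls, which read 0.36 higher on the log2 scale in VHL null arrays, it moved to -0.46 and the share of rises among all calls moved from 35.3% to 5.42%. Centring each array on its median log2 signal moved that share to 49.1%, so small differences depend on the scaling. Across the 41 gene lists used below, the spiked control scaling raised the count of falls more than 1.5 times in 33 and lowered the count of rises as much in 25. Cytosolic ribosomal proteins, for example, had 16 rises and 1 fall among 38 tested, 0 rises and 25 falls with that scaling, and 3 to 6 rises when any 1 array was left out. A control probe set for the middle of 18S ribosomal RNA also differed, with 679 and 760 in wild type and 1594 and 1532 in VHL null arrays, and its part in the results was not tested.

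**Figure D1:**
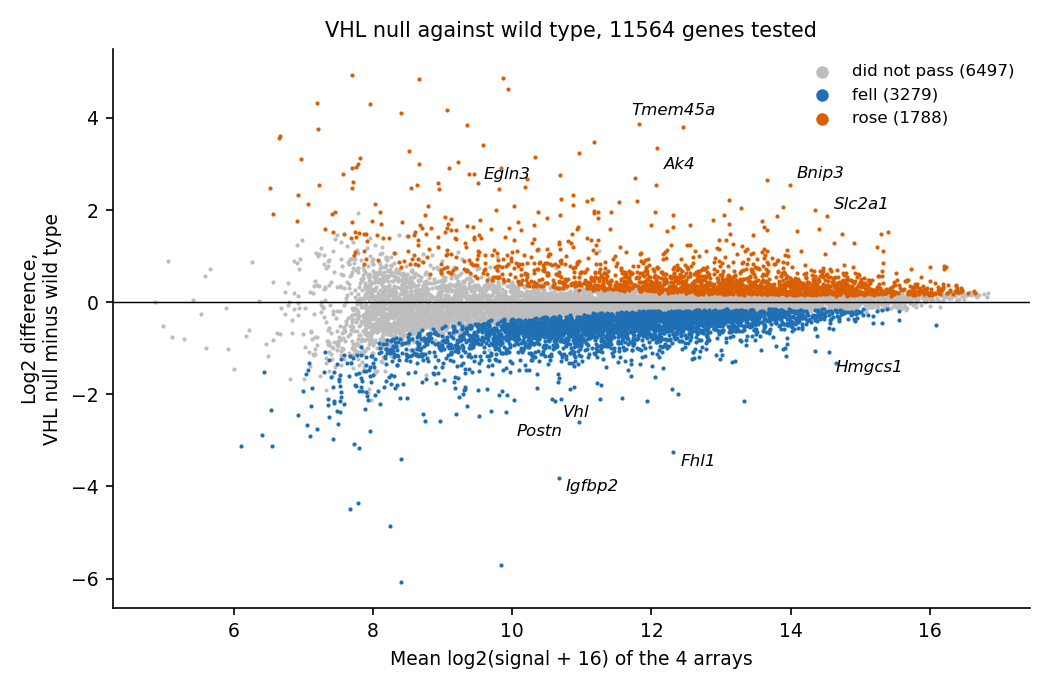
Log2 difference (VHL null minus wild type) of each of the 11564 genes tested, by the mean log2 signal of the 4 arrays. Genes that rose are in orange, those that fell in blue and the rest in grey. Large rises lie far above the main cloud over much of the brightness range, and rises outnumber falls among the brightest genes only; with scaling to the spiked controls falls outnumber rises.

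The check of the deletion came first. The Vhl signal was 3269 and 3319.6 on the wild type arrays and 708 and 755 on the VHL null arrays, so it fell by 2.15 (SE 0.11, limma adjusted p = 1.8e-07). The groups were far apart, and a second probe set fell by 2.53, with 2702 and 2507 against 416 and 457. Both kept a signal above the cutoff in VHL null cells, and where the probe sets lie relative to the deleted part is not given in the sources used here. Of the 5 tested genes on each side of Vhl along its chromosome, 2 of 10 fell and none rose, where 28.4% of all genes fell: Creld1 fell by 0.54 (adjusted p = 3.4e-04) and Vgll4 fell by 0.47 (adjusted p = 0.048, lost under 8 of the alternatives, among them leaving out any of the 4 arrays).

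Among the 22 tested members of the HIF and VHL ligase list, 7 rose and 6 fell, a median of 0.01. The prolyl hydroxylases differed from each other. Egln3, an HIF target itself, read 633 and 603 in wild type and 4188 and 4412 in VHL null cells, a rise of 2.77 (SE 0.084, adjusted p = 2.5e-09). Egln1, the main hydroxylase of HIF in normal oxygen, read 6725 and 6705 against 22064 and 23286, a rise of 1.75 (adjusted p = 1.2e-08). Neither gene's arrays overlapped between the groups, as was the case for 74.0% of all genes, and the Egln2 signal of 4783 and 4795 against 4189 and 4185 did not pass (adjusted p = 0.050), although it did as a fall under 5 of the alternatives.

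The alpha subunit Hif1a read 30620.4 and 30233 in wild type and 33864 and 32544 in VHL null cells, a difference of 0.13 that did not pass (adjusted p = 0.12) and turned to a fall with scaling to the spiked controls. Epas1, which encodes HIF-2 alpha, was below the cutoff on all 4 arrays. The partners of the alpha subunits were lower: Arnt fell by 0.46 (SE 0.085, adjusted p = 0.0014), and Arnt2, its paralogue, fell by 1.10, from 1383 and 1259.6 to 676 and 547 (adjusted p = 4.1e-04). Cited2, which competes with HIF alpha for the coactivators p300 and CBP, rose by 0.56 (adjusted p = 4.2e-05). Without wild type array 2, or without VHL null array 2, 4 members of this list rose.

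Of the 48 tested members of a list of hypoxia-inducible genes other than glycolytic ones, 41 rose (85.4%) and 1 fell, with a median of 1.09, where 15.5% of all genes rose and the median was -0.10. Of the list's 53 entries 50 had a probe set, and 40 of the tested members were above the cutoff on all 4 arrays. This list, like the others, was chosen with earlier results of these data known. Of the 8 largest rises among all genes above the cutoff on all 4 arrays, 4 were members, including Egln3. Tmem45a, a membrane protein, went from 1050.0 and 817 in wild type to 13841 and 13676 in VHL null cells, a rise of 3.87 (SE 0.13, adjusted p = 4.1e-09). Ak4, an adenylate kinase of mitochondria, went from 1359 and 1332 to 14236 and 13478, a rise of 3.35 with 3 of 3 probe sets in that direction (adjusted p = 4.2e-10). In both genes the VHL null arrays lay close together and far above wild type. The other was Vldlr, a lipoprotein receptor, with a rise of 3.79 and 6 of 6 probe sets in that direction.

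Bnip3, a mitochondrial receptor for autophagy, read 6697 and 6752 against 38713 and 39468, a rise of 2.54 (SE 0.068, adjusted p = 8.9e-10). Ero1a, which makes disulphide bonds in the endoplasmic reticulum, read 7645 and 7408 against 27904 and 26819.7, a rise of 1.86 (adjusted p = 9.1e-09). The single member that fell with all arrays was Cox4i2, a cytochrome oxidase subunit isoform named here after its values were seen, with 378 and 329 in wild type and 64.9 and 65.7 in VHL null cells, where it was below the cutoff on both arrays. Against the cutoff it was at least 1.21-fold lower (adjusted p = 0.0038), and in the second background it was below the cutoff in both groups. Without wild type array 2 the falls of this list numbered 2.

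Promoters of 4 genes from these groups are printed because they show how letters of the core HIF binding site lie in genes that rose, from 5 matches to 1. They run from 250 bases before to 50 bases after the start, from RefSeq on GRCm38.p6, 5′ to 3′ on the gene's strand. Capitals mark ACGTG or GCGTG on either strand, where CACGC and CACGT are the other strand's letters, and CACGTG is the overlapping E-box.
Bnip3, chr7:138909457-138909756, minus strand: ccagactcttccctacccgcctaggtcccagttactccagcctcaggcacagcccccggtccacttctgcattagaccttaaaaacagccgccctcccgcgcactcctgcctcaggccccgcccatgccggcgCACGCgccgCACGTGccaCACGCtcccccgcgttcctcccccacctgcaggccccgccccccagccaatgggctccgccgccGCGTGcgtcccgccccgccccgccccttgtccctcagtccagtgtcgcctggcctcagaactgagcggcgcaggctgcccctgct
Slc2a1, chr4:119108495-119108794, plus strand: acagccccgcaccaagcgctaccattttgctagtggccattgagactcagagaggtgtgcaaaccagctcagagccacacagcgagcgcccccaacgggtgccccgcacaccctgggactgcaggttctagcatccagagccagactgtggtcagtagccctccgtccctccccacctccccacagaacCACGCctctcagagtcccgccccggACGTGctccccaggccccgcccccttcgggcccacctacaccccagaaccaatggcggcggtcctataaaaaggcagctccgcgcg
Pdk1, chr2:71872974-71873273, plus strand: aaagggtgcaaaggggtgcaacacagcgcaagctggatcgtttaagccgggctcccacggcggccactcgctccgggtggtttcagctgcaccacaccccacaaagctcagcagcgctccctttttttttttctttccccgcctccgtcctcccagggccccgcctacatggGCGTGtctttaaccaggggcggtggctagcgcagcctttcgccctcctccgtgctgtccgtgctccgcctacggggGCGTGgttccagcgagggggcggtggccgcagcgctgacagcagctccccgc
Egln3, chr12:54203825-54204124, minus strand: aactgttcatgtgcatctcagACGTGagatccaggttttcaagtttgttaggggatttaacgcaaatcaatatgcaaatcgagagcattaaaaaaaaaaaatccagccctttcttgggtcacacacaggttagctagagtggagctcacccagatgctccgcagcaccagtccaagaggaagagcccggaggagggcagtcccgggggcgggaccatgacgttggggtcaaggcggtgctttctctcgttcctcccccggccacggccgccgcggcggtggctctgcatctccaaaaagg
Bnip3 held 5 matches, 2 of which are the 2 strands of 1 CACGTG, Slc2a1 2, Pdk1 2 and Egln3 1. Such letters are common: 64.2% of the 9382 tested genes with a listed promoter held at least 1, and of the genes that rose at least 2-fold 59.7% did (114 of 191). The shares were 75.7% in the hypoxia list (28 of 37) and 79.2% in the glycolysis list (19 of 24). Counting only matches outside CACGTG, 60.5% of all promoters held at least 1, with 27 of 37 in the hypoxia list and 18 of 24 in the glycolysis list, and the median GC content was 61.3% over all, 62.0% in the hypoxia list and 64.7% in the glycolysis list. A match in this window is a description of the letters only.

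Glucose uptake and glycolysis had 25 tested genes, of which 16 rose and 7 fell, with a median of 0.72. Dropping probe sets with possible cross-hybridization left 10 rises, from fewer tested members, and without wild type array 1 or 2, or VHL null array 2, there were 4 falls. The falls were of Pfkfb2, Pfkfb4, Eno2, Eno3, Ldhb, Pdk2 and Pdk4. Among the rises Hk2, which phosphorylates glucose, went from 4033 and 4096 to 14299 and 13879, a rise of 1.79 (SE 0.069, adjusted p = 1.6e-08). Pfkp, a phosphofructokinase, went from 4238 and 3904 to 19290.2 and 18951, a rise of 2.23 (adjusted p = 9.0e-09). Aldoc, the aldolase isoform best known from brain, went from 1010.1 and 1036 to 5163 and 4678, a rise of 2.25 (adjusted p = 1.6e-08).

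Groups did not overlap for any of these enzymes, nor for 74.0% of all genes. At the end of the pathway Slc16a3 (MCT4), which carries lactate out of cells, went from 4368 and 4368 to 16558 and 15883, a rise of 1.89 (adjusted p = 4.2e-07), and its partner Bsg (basigin) rose by 0.76 (adjusted p = 9.6e-05). Slc4a4, a bicarbonate transporter, rose by 1.41 (adjusted p = 0.0024), while Car13, a cytosolic carbonic anhydrase, fell by 1.04 (adjusted p = 4.3e-05). Of the 14 tested genes of acid export and carbonic anhydrases 5 rose and 4 fell, where 15.5% and 28.4% of all genes did.

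Of 23 tested genes of glycogen metabolism 7 rose (30.4%) and 5 fell (21.7%), a median of -0.03. Pgm1, which links glycolysis to glucose 1-phosphate, went from 4767 and 5069 to 20666 and 19777, a rise of 2.04 (SE 0.090, adjusted p = 4.5e-08). Gys1, the muscle-type glycogen synthase, went from 1481 and 1611 to 5236 and 4204, a rise of 1.59 (adjusted p = 3.3e-06). Gbe1, which adds the branches, went from 776 and 864 to 4025 and 4313, a rise of 2.33 (adjusted p = 2.2e-08). Gyg (glycogenin), which primes glycogen and is named after its values were seen, fell by 0.29, from 12914 and 12489 to 10713 and 9998 (adjusted p = 0.0053), a call lost without VHL null array 2.

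Ppp1r3b, which brings a phosphatase to glycogen, was below the cutoff in wild type (23.8 and 19.4) and read 996 and 1294 in VHL null cells, so against the cutoff it was at least 3.93-fold higher (adjusted p = 9.3e-06). Of the enzymes that break glycogen down, the isoforms went opposite ways. Pygl, the liver phosphorylase, rose from 428 and 519 to 2651 and 2830.0, a difference of 2.50 (adjusted p = 1.0e-07), whereas Pygb, the brain phosphorylase, fell by 0.84, from 7709.6 and 6987 to 4059 and 4136 (adjusted p = 7.2e-06). The arrays of the groups did not overlap for either, as for 74.0% of all genes. Without VHL null array 2 the falls of this list numbered 3.

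**Figure D2:**
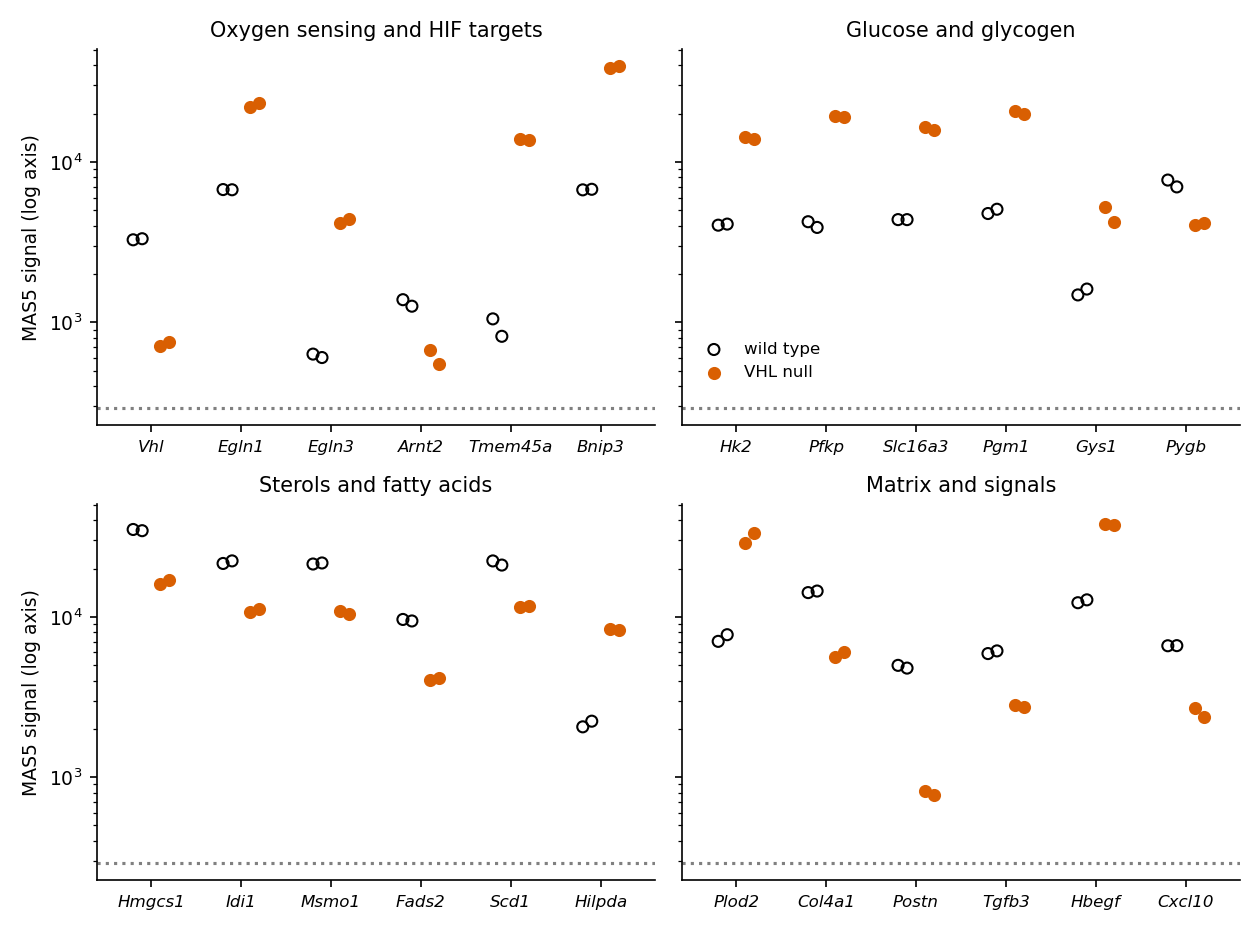
MAS5 signal (log axis) of 24 named genes on the 2 wild type arrays (open circles) and the 2 VHL null arrays (filled circles), in 4 panels by role, with the cutoff of 291.1 as a dotted line. Within each gene the replicate arrays lie close together, and the groups do not overlap in any of the 24, as in 74.0% of all genes tested.

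In the pentose phosphate pathway Rpia, which makes ribose 5-phosphate, fell by 1.27, from 4971 and 4837 to 1874 and 2173 (adjusted p = 1.1e-06), the largest change of its 10 tested genes. Genes of the tricarboxylic acid cycle and of glutamine use were lower more often than higher, with 14 falls and 3 rises among 33 tested (42.4% against 28.4% of all genes). Dropping probe sets with possible cross-hybridization left 9 falls, and without VHL null array 1 there was 1 rise. Idh1, the cytosolic isocitrate dehydrogenase, fell by 1.28, from 15054 and 14139 to 6112 and 5885 (SE 0.098, adjusted p = 3.3e-06). Idh2, its mitochondrial counterpart, fell by 0.82, from 13142 and 13141 to 7285 and 7626 (adjusted p = 3.4e-06). Suclg2, Sdha and Fh1, which act in succession around succinate, had differences of -0.63, -0.35 and -0.35, and all 3 passed.

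Mitochondria also held genes that rose. Lonp1, the protease of the mitochondrial matrix, went from 10899.9 and 10737 to 21503 and 22809, a rise of 1.03 (SE 0.067, adjusted p = 9.2e-07). Ndufv3, a subunit of complex I, went from 15718 and 16242 to 33076 and 33374, a rise of 1.05 (adjusted p = 6.6e-07). Higd1a, a small protein that binds the respiratory chain, went from 24879 and 23257 to 67082 and 67139, a rise of 1.48 (adjusted p = 1.1e-07). All 3 were separate from wild type on both arrays, as were 74.0% of all genes. Ndufv3 stood alone among the respiratory chain genes in rising 2-fold: 20 of 67 rose and 8 fell, the next largest rise was 0.42 in Ndufa1 (lost with scaling to the spiked controls), and the rises numbered 12 without wild type array 1, 10 without VHL null array 1 and 1 with the spiked control scaling.

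Sterol synthesis was lower along most of its route, with falls in 17 of the 18 enzymes tested. Of 29 tested genes of cholesterol synthesis, uptake and control 22 fell (75.9%) and 2 rose, with a median of -0.69 against -0.10 over all genes. Hmgcs1, which makes HMG-CoA, fell by 1.07, from 35052 and 34451 to 16117 and 16856 (SE 0.062, adjusted p = 3.5e-07) with 5 of 5 probe sets in that direction. Idi1, which isomerizes the isoprenoid unit, fell by 0.996, from 21516 and 22326 to 10791 and 11178 (adjusted p = 3.0e-07). Fdft1 (squalene synthase), the first step that belongs to sterols alone, fell by 0.95, from 19168 and 20275 to 9786 and 10687 (adjusted p = 9.2e-07).

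Of the later steps, Msmo1 fell by 1.01 and Nsdhl fell by 1.01, both demethylation enzymes (adjusted p = 5.9e-07 and 5.3e-07). The 2 members that rose, named after their values were seen, were Abca1, the cholesterol exporter, by 1.15 (adjusted p = 1.3e-05), and Insig2, which holds SREBP in the endoplasmic reticulum, by 0.46 (adjusted p = 2.2e-04). With scaling to the spiked controls 1 of these 2 rises was left.

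**Figure D3:**
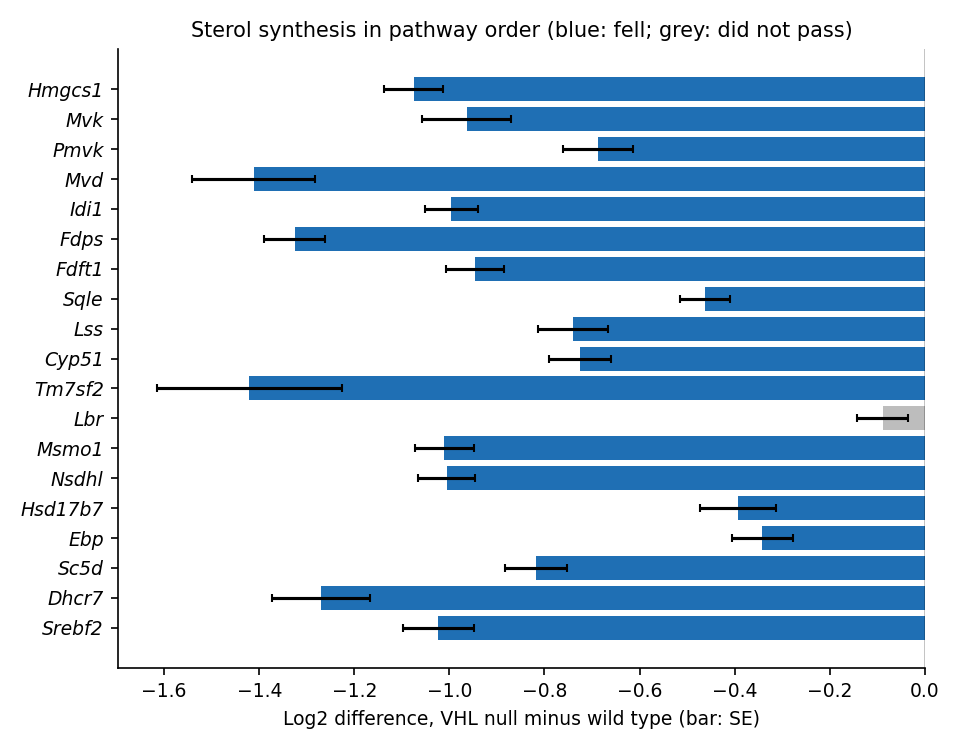
Log2 difference (VHL null minus wild type) with limma's SE for 19 tested enzymes and regulators of sterol synthesis in pathway order, from HMG-CoA synthase at the top. Bars to the left of 0 are lower in VHL null cells; all 19 lie left of 0, and Lbr (grey) did not pass.

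Fatty acid and triglyceride synthesis was also mostly lower, with 18 of 25 lower (72.0%) and 2 higher, a median of -0.37; the rises numbered 1 or 0 without any 1 of the 4 arrays. The desaturases were among the falls of this list. Fads2 fell by 1.21, from 9629 and 9421 to 4010.3 and 4183 (SE 0.067, adjusted p = 2.5e-07), and Fads1, which acts after it on polyunsaturated fatty acids, fell by 1.04 (adjusted p = 3.8e-07). Scd1, which makes monounsaturated fatty acids, fell by 0.91, from 22315 and 21026 to 11443 and 11654 (adjusted p = 1.2e-06). Elovl6, the elongase that feeds it, fell by 1.09 (adjusted p = 6.6e-07). The regulator in this list, Srebf1, fell by 0.43, from 8599 and 8058 to 6513 and 5823 (limma adjusted p = 6.6e-04). Srebf2, a regulator in the sterol list and not in this one, fell by 1.02 (limma adjusted p = 2.4e-06). Both regulators were named after their values were seen.

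Fatty acid oxidation was also lower, with 15 falls and 2 rises among 28 tested genes (53.6% fell; 1 rise without VHL null array 2). Acadl, a long-chain dehydrogenase, fell by 0.52, and Cpt2, the inner carnitine transferase, fell by 0.64 (adjusted p = 2.7e-05 and 1.2e-04). The call for Cpt2 was lost with the mean of its probe sets. Of 16 tested genes of lipid uptake and droplets 4 rose and 5 fell (3 fell without wild type array 1 or 2). Hilpda, a HIF target that blocks triglyceride breakdown, went from 2059.6 and 2234 to 8443 and 8306, a rise of 1.96 (SE 0.076, adjusted p = 1.6e-08). Plin2, which coats droplets, went from 16989.7 and 17089 to 25696 and 25042, a rise of 0.57 (adjusted p = 2.5e-05). Plin3, a related coat protein, fell by 0.72 (adjusted p = 0.0019).

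The promoters of Hmgcs1 and Mvk (mevalonate kinase, named after its values were seen, which fell by 0.96) are shown for motifs known from promoters of sterol genes. They come from RefSeq on GRCm38.p6 as above. In Hmgcs1 capitals mark TCACNCCAC, a form of the sterol response element, and in Mvk they mark CCAAT, where ATTGG is the other strand.
Hmgcs1, chr13:119690101-119690400, plus strand: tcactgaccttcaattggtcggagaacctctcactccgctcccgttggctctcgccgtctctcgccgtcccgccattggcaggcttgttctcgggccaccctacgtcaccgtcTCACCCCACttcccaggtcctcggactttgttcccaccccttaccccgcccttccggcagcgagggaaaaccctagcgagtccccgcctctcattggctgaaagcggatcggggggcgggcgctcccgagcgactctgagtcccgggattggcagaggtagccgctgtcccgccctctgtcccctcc
Mvk, chr5:114444019-114444318, plus strand: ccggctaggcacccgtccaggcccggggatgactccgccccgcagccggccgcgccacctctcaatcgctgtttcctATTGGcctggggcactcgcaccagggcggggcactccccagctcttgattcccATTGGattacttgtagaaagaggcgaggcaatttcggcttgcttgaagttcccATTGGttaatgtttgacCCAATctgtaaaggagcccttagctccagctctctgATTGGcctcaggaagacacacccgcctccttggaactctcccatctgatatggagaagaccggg
CCAAT on either strand stood in 82.6% of the sterol list's promoters (19 of 23) and in 39.2% of all 9382. TCACNCCAC stood in 1 of 23, that of Hmgcs1, and in 1.02% of all. The sterol response element varies more than these letters allow, so its absence here says only that these letters were not in the window.

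Collagen hydroxylases and crosslinking enzymes changed in both directions, with 6 rises (27.3%) and 8 falls (36.4%) among 22 tested genes. Plod2, the lysyl hydroxylase of collagen ends, went from 7029 and 7736 to 28869 and 33166, a rise of 2.07 (SE 0.100, adjusted p = 1.0e-07). P4ha2, a subunit of collagen prolyl hydroxylase, went from 10449 and 9842 to 30454 and 29208, a rise of 1.55 (adjusted p = 1.9e-07). P4ha1, the other main subunit, rose by 0.84 and Lox, which crosslinks collagen, by 0.72 (adjusted p = 1.3e-05 and 1.7e-04). The collagen chaperone Serpinh1 (HSP47) fell by 0.46 (adjusted p = 1.7e-04), and Pcolce2, an enhancer of collagen cleavage, fell by 1.76, from 4421 and 4305 to 1332 and 1217 (adjusted p = 2.4e-07). Its paralogue Pcolce, named after its values were seen, rose by 0.26, from 72080 and 73595 to 87995 and 86882 (limma adjusted p = 0.0021).

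Of 50 tested collagens and other matrix proteins 20 fell (40.0%) and 10 rose, a median of -0.25; without wild type array 2 there were 6 rises. Basement membrane chains were among the falls. Col4a1 fell by 1.29, from 14158 and 14478 to 5627 and 6055 (SE 0.072, adjusted p = 2.6e-07). Col4a2, its partner in the same fibre, fell by 1.09, from 7234 and 6027 to 2746 and 3479 (adjusted p = 3.6e-05). Lamc1, the common gamma chain of laminins, fell by 0.84 (adjusted p = 2.3e-05).

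Postn (periostin), a matrix protein of fibroblasts, fell by 2.60, from 4980.0 and 4788 to 814 and 776 (adjusted p = 1.3e-08), among the 8 largest falls of genes above the cutoff on all 4 arrays. In the opposite direction Col3a1, a fibrillar collagen, went from 11476 and 12006 to 21599.9 and 20924, a rise of 0.86 (adjusted p = 8.1e-07). Mmp2, which cleaves collagen IV, fell by 1.13, from 6204 and 6620.4 to 2823 and 3006 (adjusted p = 1.2e-06). Adamts5, an aggrecanase, fell by 1.88, from 9555 and 9687 to 2465 and 2763 (adjusted p = 2.9e-08). None of these genes' arrays overlapped between the groups, as was so for 74.0% of all genes.

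The 3 TGF-beta ligands were all lower. Tgfb1 fell by 0.87, from 2551 and 2555 to 1488 and 1305 (SE 0.11, adjusted p = 9.0e-05). Tgfb2 fell by 0.81, from 5952 and 6299 to 3660.2 and 3328 (adjusted p = 4.2e-05). Tgfb3 fell by 1.11, from 5898 and 6129 to 2824 and 2742 (adjusted p = 2.5e-06). A pair of genes that TGF-beta is known to induce went apart. Acta2 (smooth muscle actin) fell by 1.06, from 29785 and 30482 to 14579 and 14201 (adjusted p = 3.5e-07), and Ccn2 (CTGF) rose from 24002 and 27258 to 59777 and 56814, a difference of 1.19 (adjusted p = 5.4e-07). Of the 31 contractile and myofibroblast genes tested 7 rose and 11 fell, where 15.5% and 28.4% of all genes did.

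Cavin2, Fhl1 and Vcam1 were among the 8 largest falls of genes above the cutoff on all 4 arrays. Cavin2, a coat protein of caveolae, fell by 2.15, from 21426 and 21949 to 4945 and 4841 (SE 0.055, adjusted p = 8.2e-10). Fhl1, a LIM protein of the contractile apparatus, fell by 3.25, from 14798 and 16675 to 1648 and 1629.5 (adjusted p = 2.9e-10). Vcam1, the adhesion molecule for leukocytes, fell by 2.14, from 8335 and 8086 to 2023 and 1699 (adjusted p = 1.9e-07). Among 28 cadherin and junction genes there were 6 rises and 8 falls, where 15.5% of all genes rose and 28.4% fell. Jup (plakoglobin) fell by 1.16 and Cdh3 (P-cadherin) fell by 1.33, with adjusted p = 5.6e-05 and 1.6e-04.

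Interferon-stimulated genes were mostly lower: of 39 tested 21 fell (53.8%) and 2 rose, a median of -0.65. Many are dim, and with the filter at the 75th percentile of signals 6 of those left in the test fell. Ifit1, which binds viral RNA, fell by 2.05, from 1102 and 1321 to 234 and 332 (SE 0.20, adjusted p = 2.1e-05). Rtp4, a receptor transporter induced by interferon, fell by 1.91, from 1262 and 1169 to 292 and 335 (adjusted p = 5.7e-06). Bst2 (tetherin), which holds virus at the cell surface, fell by 1.16, from 2266 and 2224 to 971 and 1016 (adjusted p = 1.0e-05).

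The class I histocompatibility gene H2-K1 went the other way, from 9370.2 and 9000.0 to 15702 and 14911, a rise of 0.74 (adjusted p = 3.8e-05), with 3 of 4 probe sets in that direction and the other at -0.64. Transcripts of related class I genes can bind its probe sets, and with possibly cross-hybridizing probe sets left out 0 members of the list rose. Ifi202b, an interferon-inducible DNA sensor outside the list, went from 1287 and 1413 to 8835 and 8843, a rise of 2.70 (adjusted p = 2.5e-05).

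The promoter of Ifit1 is printed for the interferon response letters. Capitals mark GAAA followed after 2 bases by GAAA, or TTTC followed after 2 bases by TTTC, the same letters on the other strand.
Ifit1, chr19:34640639-34640938, plus strand: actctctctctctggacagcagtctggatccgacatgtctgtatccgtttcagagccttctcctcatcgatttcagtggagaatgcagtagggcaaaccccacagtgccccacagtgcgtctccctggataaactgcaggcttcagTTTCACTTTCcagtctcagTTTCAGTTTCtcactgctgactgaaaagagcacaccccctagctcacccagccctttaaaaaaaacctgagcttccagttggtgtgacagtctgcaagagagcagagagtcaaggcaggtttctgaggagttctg
This pair on either strand stood in 44.1% of the list's promoters (15 of 34) and in 2.69% of all 9382, and among all genes that fell it also stood in 2.69%. The median GC content was 54.0% in the list and 61.3% over all.

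Of 33 tested chemokines, cytokines and their receptors 10 rose (30.3%) and 8 fell (24.2%). Cxcl10, a chemokine known to be induced by interferons, fell by 1.38, from 6599.7 and 6610.3 to 2692 and 2386 (SE 0.11, adjusted p = 6.3e-06). Ccl5 fell by 1.31, from 2766 and 3041 to 1192 and 1129 (adjusted p = 1.8e-06). Cxcl12 and its receptor Ackr3 changed in opposite directions. Cxcl12 fell by 0.67, from 16687 and 16489.5 to 10393 and 10394 (adjusted p = 5.2e-06). Ackr3, which takes the ligand up without classical signalling, rose by 0.95, from 8965 and 9076 to 18270.2 and 16619 (adjusted p = 8.2e-07). Lifr, the receptor of leukemia inhibitory factor, fell by 1.53 (adjusted p = 2.9e-05). Tnfaip3 (A20), which restrains NF-kB, rose by 0.78 (adjusted p = 1.7e-05).

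Growth factors and receptors had 19 rises and 18 falls among 61 tested, where 15.5% of all genes rose and 28.4% fell. The EGF receptor ligands Hbegf and Ereg were among the rises. Tgfa, another ligand of that receptor named after its values were seen, did not pass (-0.44, limma adjusted p = 0.19). Hbegf went from 12244 and 12760.3 to 37944 and 37586, a rise of 1.59 (SE 0.055, adjusted p = 7.4e-09). Ereg (epiregulin) went from 1177 and 1331 to 4487 and 4536, a rise of 1.84 (adjusted p = 5.2e-07). Bdnf, a neurotrophin, went from 5090.1 and 5721 to 14081 and 13332, a rise of 1.34 (adjusted p = 2.1e-07). Hbegf, Ereg and Bdnf each read at least 2-fold higher on each VHL null array than on either wild type array.

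Efnb2, an ephrin of arteries, rose by 0.88 (adjusted p = 1.9e-06). Pdgfd, a platelet-derived growth factor, fell by 2.36, from 1759.7 and 1976 to 361 and 338 (adjusted p = 2.4e-07). In the insulin-like growth factor system Igf2 fell by 1.48, from 1644 and 1452 to 568 and 522 (adjusted p = 1.4e-04), and its binding protein gene Igfbp2 fell by 3.81, the largest fall of a gene above the cutoff on all 4 arrays.

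The JmjC histone demethylases need oxygen and 2-oxoglutarate as the Egln enzymes do, and some are known HIF targets. Of 26 tested members of a list of JmjC proteins, not all of them histone demethylases, 6 rose and 7 fell. Over all genes 15.5% rose and 28.4% fell. With scaling to the spiked controls 2 rose and 14 fell. Jmjd6 went from 8274 and 8688 to 17697 and 18270.3, a rise of 1.08 (SE 0.062, adjusted p = 3.6e-07). Kdm3a went from 6949 and 6663 to 12438 and 12342, a rise of 0.86 (adjusted p = 6.3e-06). Phf2 fell by 0.72, from 4994 and 4843 to 2827 and 3139 (adjusted p = 7.9e-05). The groups were separate in each, as in 74.0% of all genes.

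Of 63 cell cycle and replication genes 10 rose (15.9%) and 15 fell (23.8%), with a median of -0.05, beside 15.5% and 28.4% of all genes, so neither share stands far from that background. The cyclins E moved apart: Ccne2 went from 7708 and 9377 to 15526 and 16986, a rise of 0.93 (SE 0.095, adjusted p = 2.7e-05), and Ccne1 fell by 0.77, from 6306 and 5363 to 3113 and 3720.1 (adjusted p = 1.4e-04). Cyclin D1 (Ccnd1) fell by 0.65, and Cdkn2b (p15), an inhibitor of the kinases it activates, fell by 1.15, from 11680.2 and 13016 to 5249.6 and 5888 (adjusted p = 2.2e-05 and 8.9e-07). Without wild type array 2, or without VHL null array 1, the rises of this list numbered 6.

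p53 targets had 4 rises and 5 falls among 28 (2 falls without VHL null array 1 and 3 without VHL null array 2). For this list and the next 2, the shares over all genes were 15.5% rises and 28.4% falls. Cdkn1a (p21) went from 6391 and 5027 to 9183 and 8742, a rise of 0.66 (adjusted p = 5.0e-04), and Perp, a membrane protein of cell death, fell by 1.23, from 9158 and 9646 to 3924 and 4064 (adjusted p = 3.1e-06). NRF2 targets had 7 rises and 8 falls among 31 (4 rises without wild type array 1, VHL null array 1 or VHL null array 2), and Nqo1, a quinone reductase, fell by 0.68, from 3653 and 3731 to 2318 and 2277 (adjusted p = 4.0e-05). In the amino acid deprivation list, with 9 rises and 8 falls among 37, Slc7a5 (LAT1), which imports large neutral amino acids, fell by 0.85, from 13222 and 13561 to 8059.5 and 6846 (adjusted p = 1.4e-05).

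Lysosome and autophagy genes were lower more often than higher, with 16 falls and 3 rises among 35 (45.7% against 28.4% of all genes) and a median of -0.19; without wild type array 2 there was 1 rise. Mcoln1, the calcium channel of lysosomes, fell by 0.77, from 4927 and 4029.5 to 2645 and 2569 (SE 0.10, adjusted p = 1.6e-04), a call lost when possibly cross-hybridizing probe sets were left out. Sqstm1 (p62), a cargo receptor, fell by 0.39, from 28393 and 27266 to 21312 and 21031 (adjusted p = 4.7e-04). Cilium genes had 17 falls and 1 rise among 41 (41.5% fell), 10 falls without VHL null array 1 and 9 with the filter at the 75th percentile of signals. Ttc21b, of the returning intraflagellar transport complex, fell by 0.77, and Smo, the transducer of Hedgehog signals in the cilium, fell by 0.49 (adjusted p = 7.2e-05 and 1.5e-04).

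Some genes were below the cutoff in one group and above it in the other. Atp7b, a copper exporter, read 179.7 and 265 in wild type and 2339.9 and 2643 in VHL null cells, so it was at least 8.56-fold higher (adjusted p = 4.9e-07), while its second tested probe set differed by 0.12. Smtnl2, a smoothelin-like protein, read 239.8 and 98.6 against 2555 and 2351, at least 8.43-fold higher (adjusted p = 3.4e-06). Gpnmb, a glycoprotein of lysosomes and melanosomes, read 1491 and 968 against 148 and 236, at least 4.22-fold lower (adjusted p = 3.0e-05).

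Among genes above the cutoff on all 4 arrays, further large rises were those of Ndrg2, a stress-responsive gene, from 801 and 571 to 7823 and 7616, a rise of 3.48 (SE 0.15, adjusted p = 3.8e-08). Mgarp, a mitochondrial protein, went from 655 and 610.4 to 6091 and 6060.1, a rise of 3.23 (adjusted p = 3.0e-09). Gng11, a G protein gamma subunit, went from 451 and 379 to 4019 and 3645, a rise of 3.16 (adjusted p = 8.8e-08). Each was separate from wild type by more than 8-fold between the nearest arrays.

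Genes that mark position in the embryo changed in both directions. Of 61 tested Hox and patterning genes 13 rose (21.3%) and 22 fell (36.1%), beside 15.5% and 28.4% of all genes. The largest changes were falls to below the cutoff on both VHL null arrays. Hoxd13 went from 7009 and 6221 to 103 and 119, at least 22.7-fold lower (limma adjusted p = 2.4e-11). Alx1 went from 1687 and 1561 to 34.7 and 47.3, at least 5.58-fold lower (adjusted p = 1.9e-07). Hoxa5 rose by 0.70, from 7562 and 8339 to 13061 and 12811 (adjusted p = 2.6e-05), and read -1.86 in the second background. Sox11 fell by 2.11, from 3631 and 3282 to 799 and 779.5 (SE 0.11, adjusted p = 1.2e-07), with 6 of 6 probe sets in that direction. Tbx15, of limb and skin, fell by 0.996, from 4287 and 4032 to 2158 and 1999 (adjusted p = 3.6e-06). Lhx9, of the limb bud and gonad, fell by 0.86, from 4559.7 and 4328 to 2526 and 2359 (adjusted p = 5.8e-06). In the second background Tbx15 and Lhx9 differed in the opposite direction, by 0.68 and 1.14. The effect differed between the backgrounds in 46 of the 61 genes, where it did in 21.9% of all genes.

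Imprinted genes had 10 falls and 2 rises among 18 tested, a median of -0.38 (1 rise without wild type array 2 or VHL null array 1). Over all genes 28.4% fell and 15.5% rose. Mest fell by 1.86, from 1009 and 1165 to 231 and 357 (adjusted p = 7.5e-05), and Ndn (necdin) fell by 0.86, from 1629 and 1647 to 963 and 835 (adjusted p = 1.6e-04), while Ndn was higher by 2.99 in the second background. Of the 3 Y-linked genes tested Kdm5d read 1074 and 1223 in wild type and 498 and 410.1 in VHL null cells and fell by 1.31 (adjusted p = 1.0e-04), and Eif2s3y fell by 0.67 (adjusted p = 9.0e-05). Uty, with 1579 and 1560.4 against 1349 and 1325, did not pass (-0.23, adjusted p = 0.13), although it did as a fall with scaling to the spiked controls. The patterning, imprinted and Y-linked differences stand beside the different lines of origin, whose part in the results was not tested.

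**Figure D4:**
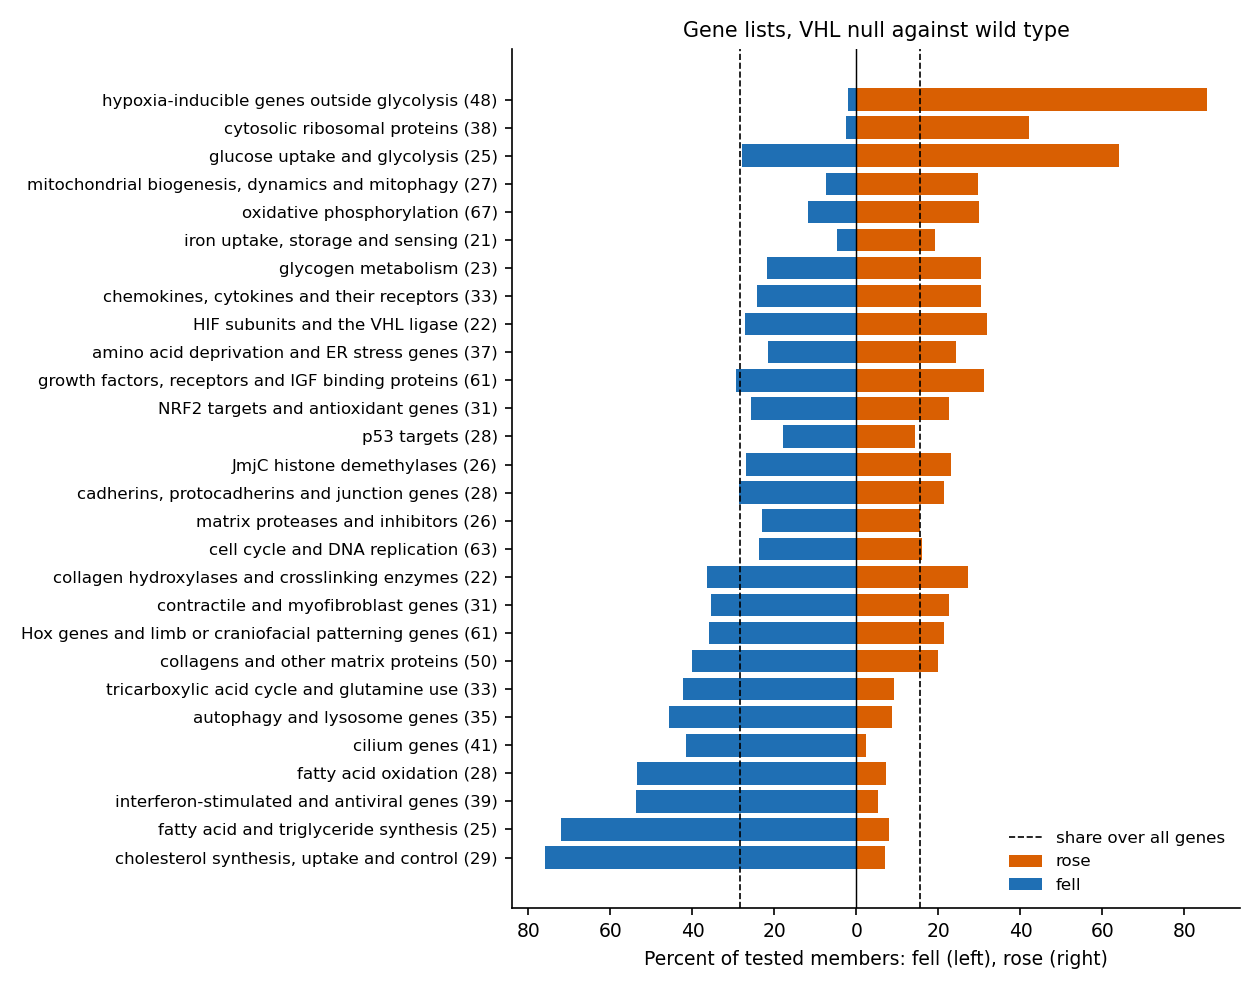
Percent of tested members that rose (orange, to the right) and fell (blue, to the left) in VHL null against wild type cells for the 28 gene lists with at least 20 tested members, the number tested in brackets. The lists were chosen with earlier results of these data known. Dashed lines mark 15.5% and 28.4%, the shares over all genes; the hypoxia list reaches 85.4% to the right and the sterol list 75.9% to the left, while with scaling to the spiked controls the ribosomal list had 0 rises and 25 falls and the oxidative phosphorylation list 1 rise and 50 falls.

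The difference of VHL null from wild type cells could be set beside that of double null from FIH null cells. The 2 comparisons share no array, only the estimate of each gene's spread. In each, genotype and line of origin cannot be told apart. Vhl read 3534 and 3426 in FIH null and 1061 and 897 in double null cells. Hif1an, the gene of FIH, read 2722 and 3013 in wild type, 1913 and 2153 in VHL null, 1676 and 1707 in FIH null and 1404 and 1169 in double null cells. Both FIH null arrays were thus below both wild type arrays but well above the cutoff, and where its probe sets lie relative to the deleted part is not given in the sources used here. Between VHL null and wild type cells, neither of which was made FIH null, it fell by 0.49 (adjusted p = 0.006), a call lost without wild type array 2 or VHL null array 1 and with the mean of its 3 probe sets. In the second background 45.5% of genes passed, 20.6% higher and 25.0% lower. Of the 1788 rises 991 also rose there (55.4% of the first list, 41.6% of the second and 8.57% of all genes), and of the 3279 falls 1709 also fell there (52.1%, 59.2% and 14.8%). Of the 65 genes that rose at least 4-fold 53 also rose in the second background (81.5%), and of the 59 that fell at least 4-fold 18 also fell there (30.5%). The difference between these shares was not tested. In 144 genes (1.25%) a rise stood against a fall in the second background, and in 243 (2.1%) a fall against a rise.

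The test of the difference itself passed for 21.9% of all genes (13.4% more positive there, 8.47% more negative) and for 1551 of the 5067 that changed (30.6%), of which 696 had the same sign in both backgrounds. Without FIH null array 1 it passed for 1646 genes instead of 2533. In the sterol list 19 genes fell in the second background, and Hmgcs1 read -1.07 there where it fell by 1.07 here. In the hypoxia list 44 rose there, and in 19 of 48 the effect was more positive there, among them Egln3 (3.94) and Bnip3 (2.90). Car9, a carbonic anhydrase of the cell surface, was below the cutoff in wild type (130.3 and 158) and on 1 of the 2 VHL null arrays (243 and 436). It rose here (limma adjusted p = 0.0054, not called when only the 4 arrays compared were fitted). With 1 VHL null array below the cutoff, no lower bound of that rise can be given. In the second background Car9 read 251 and 240.0 against 8284 and 7768, at least 27.6-fold higher. Adm, the vessel-dilating peptide adrenomedullin, rose by 2.19 here and 4.96 there, and both genes were named after their values were seen. In the interferon list 10 fell and 7 rose there, and 16 of 39 had a difference between backgrounds, 15 of them more positive there, among them Ifi27, which fell by 1.48 here and rose by 1.03 there. Fhl1 and Cavin2, 2 of the largest falls, rose by 0.80 and 0.70 there, and Adamts5 and Acta2 rose by 0.48 and 0.26.

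**Figure D5:**
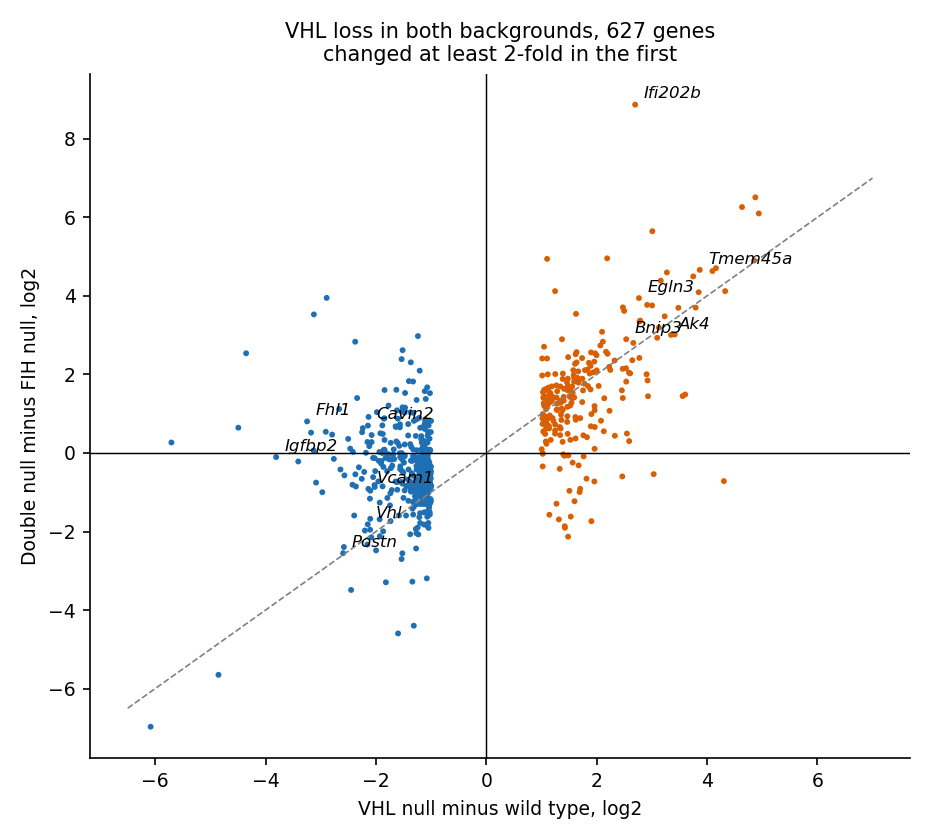
Log2 differences of VHL null minus wild type (x axis) and of double null minus FIH null (y axis). Genotype and line of origin cannot be told apart on either axis. Shown are the 627 genes that changed at least 2-fold in the first, with 11 genes labelled and a dashed line where both are equal. Many rises (orange) lie near that line, and many falls (blue) lie near or above 0 on the y axis, Fhl1 and Cavin2 among them.

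The labelled cell type was checked against markers. Of 15 fibroblast markers 13 were tested, 2 rose and 4 fell (1 fell without wild type array 1 or VHL null array 1), and their summed signal ran from 367331 to 386541 over the 4 arrays with the groups overlapping. Markers of other types were in part below the cutoff on all 4 arrays. These were 8 of 15 epithelial, 9 of 13 endothelial, 8 of 13 leukocyte, 5 of 8 adipocyte and 8 of 12 skeletal muscle markers. Cdh1, Pecam1, Ptprc, Adipoq and Myod1 were among them, while Pparg, Csf1r and Eng were above it on all 4 arrays. Of the neural and cartilage lists 3 of 13 and 4 of 10 were below it on all 4. The sum over 15 epithelial markers was 12392 and 12697 in wild type and 17813 and 18206 in VHL null cells, most of it Krt19, which rose by 0.93 (adjusted p = 5.0e-06) while Krt18 fell by 1.05. The sum over 12 skeletal muscle markers was 1569 and 1646 against 2514 and 2857, and none of its 4 tested members passed. Of 10 tested neural and glial markers 1 rose and 2 fell (1 fell without wild type array 1 or 2 or VHL null array 1). Map2, a protein of neuronal microtubules, fell by 2.47, from 1777 and 1662 to 323 and 275, below the cutoff on the last of these arrays (adjusted p = 2.5e-07), and Ncam1, a neural adhesion molecule, rose by 0.94 (adjusted p = 1.5e-05). Of 7 tested cartilage and bone markers 2 rose and 2 fell, among them Acan (aggrecan), which rose by 1.62, and Col2a1, the cartilage collagen, which fell by 2.13 (adjusted p = 8.4e-04 and 9.2e-04). Of 5 endothelial markers 1 fell (0 without wild type array 1 or 2 or VHL null array 1), of 5 leukocyte markers 1 rose, and of 3 adipocyte markers none passed. The summed signal overlapped between the groups for the neural and cartilage lists. It was 3438 and 3680 against 2995 and 3359 for the endothelial list, 2378 and 2393 against 2136 and 2359 for the adipocyte list and 4549 and 4131 against 5014 and 4993 for the leukocyte list. Their part in the results was not tested. In RNA of a whole culture, fewer cells with a transcript and less RNA per cell cannot be told apart.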

How the data were processed

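The authors deposited the intensity of each probe set of an Affymetrix mouse array as a linear MAS5 signal, per the submitters' processing notes; the values show one 2% trimmed mean, 2500, on each array, and the MAS5 version is not given in the sources used here. Of the probe sets with 1 gene symbol, 24523 passed the filter (above 291.1 on 2 arrays), and the one with the highest mean log2 signal stood for its gene, leaving 11564 genes. Group means of log2(signal + 16) were compared with limma 3.58.1 in R 4.3.3 (lmFit and eBayes with a variance trend), all 8 arrays sharing one estimate of spread, with Benjamini-Hochberg adjustment and a threshold of 0.05. With 2 arrays a group their number limits the precision. In simulated data of the same 11564 genes, 66 were changed by 0.5 log2, 67 by 1.0 and 67 by 2.0, and the rest were unchanged. The VHL null against wild type test recovered 43.94%, 64.18% and 94.03% of them, with 6 false calls. In the real data 43.8% of genes passed, far more than were changed in the simulation, so these rates and false calls need not hold there.

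Genes given array values follow a rule that named 280: targeted and HIF pathway genes, the largest changes, the 6 smallest p of each list, neighbours of Vhl and the most alike or unlike between backgrounds; other genes are marked in the text. The members and lists were chosen with earlier results of these data known. Promoters came from RefSeq. Replicate numbers did not pair arrays (correlations of deviations 0.0087 to 0.039). Alternatives covered pseudocount, filters, scaling, the variance model, probe set choice, a replicate block and leaving out each array.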

Additional observations from a re-analysis of the deposited data

Results flagged for a closer look

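The difference of double null from FIH null cells was tested against that of VHL null from wild type cells (limma's interaction term, adjusted over all genes). The genes named above that passed are listed here with the result on the log2 scale. Naming drew in part on the first comparison and on this test, so the signs within a group are no result about it. A positive value means a more positive difference in double null against FIH null cells. Line of origin cannot be told apart from genotype in this test. Each group has 2 arrays, too few to look for arrays that stand apart.

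Among HIF targets and glucose genes the difference was 2.77 for Adm, 1.18 for Egln3, 1.12 for Pygl, 0.79 for Tmem45a, 0.67 for Plod2, 0.44 for Ero1a, 0.37 for Hilpda, 0.41 for Gyg, 0.36 for Bnip3 and 0.32 for Hk2, and it was -0.28 for Pdk1. Among mitochondrial and lipid genes it was 0.30 for Idh2, -0.26 for Ndufa1, -0.28 for Fads1, -0.42 for Fads2, -0.43 for Scd1, -0.49 for Lonp1 and -0.54 for Srebf2. Srebf1 passed this test too (limma adjusted p = 0.021).

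Of the named genes of matrix, contraction and adhesion, the values were 4.05 for Fhl1, 2.84 for Cavin2, 2.36 for Adamts5, 1.60 for Pcolce2, 1.33 for Acta2, 1.22 for Vcam1, 0.51 for Ccn2 and 0.35 for Col3a1. The test also passed for Pcolce (limma adjusted p = 0.00235), which read -0.16 in the second background and 0.26 in the first comparison. Interferon genes and chemokines had 2.51 for Ifi27, 1.81 for Ackr3, 1.64 for Rtp4, 1.44 for Ifit1, 1.36 for Lifr and 0.43 for H2-K1, and Cxcl12 had -0.64. Growth factor and G protein genes had 3.70 for Igfbp2, 1.51 for Pdgfd, 1.41 for Igf2 and 1.23 for Gng11.

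Patterning, imprinted and Y-linked genes had 3.85 for Ndn, 2.00 for Lhx9, 1.94 for Mest, 1.67 for Tbx15, 1.22 for Kdm5d, 0.95 for Uty and 0.71 for Eif2s3y. The test also passed for Hoxa5 and Hoxd13 (limma adjusted p = 4.6e-08 and 6.5e-10), and Hoxd13 was below the cutoff on both VHL null arrays. Cell cycle and stress genes had 1.46 for Cdkn1a, 0.60 for Cdkn2b, 0.59 for Ccnd1, 0.48 for Ccne1, -0.44 for Nqo1 and -0.84 for Perp. Of the keratins, Krt19 had 1.32 and Krt18 had -0.86, and the neural marker Map2 had 2.58.

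The test also passed for 5 further genes that were below the cutoff of 291.1 on both arrays of at least 1 group, so the fitted differences are no measured sizes: 6.17 for Ifi202b, 3.84 for Car9, 3.05 for Col2a1, 2.19 for Cox4i2 and -1.25 for Acan. Against the cutoff Ifi202b was at least 77.2-fold higher in double null than in FIH null cells, Car9 at least 27.6-fold and Acan at least 1.03-fold. Col2a1 and Cox4i2 were below the cutoff in both FIH null and double null cells.

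Outside the genes tested, the control probe set for the middle of 18S ribosomal RNA was 2.17-fold higher in VHL null than in wild type arrays (1594 and 1532 against 679 and 760), without overlap. Its part in the results was not tested.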

How the results depend on the processing

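Of 137 named genes that passed, not counting Hoxd13, Alx1, Hoxa5, Srebf1 and Pcolce, 129 kept their call under every alternative in which they were tested. None of the 137 turned its direction. Hif1a, which did not pass, went from 0.13 to -0.24 with scaling to the spiked controls. That scaling gave 8153 changed genes (442 higher, 7711 lower, 5.42% of calls higher), and centring on array medians gave 49.1% higher. Asking for 2-fold gave 627 (236 and 391). In the second background the spiked control scaling gave 1254 higher and 4894 lower, and 2-fold gave 901 (575 and 326). For the difference between backgrounds, 2-fold gave 636 (486 positive, 150 negative), spiked control scaling 2600 positive and 403 negative, median centring 1544 negative and no variance trend 594 negative. Leaving out 1 array gave 3606 to 3997 changed genes (1265 to 1392 higher, 2284 to 2608 lower), 3941 to 4816 in the second background and 1646 to 2529 for the difference (588 to 1066 negative). In the glycolysis list the rises numbered 10 without cross-hybridizing probe sets, and the falls 2 with the 75th percentile filter, 4 with quantile normalization and 4 to 6 without 1 array. In the hypoxia list the falls numbered 0 with that filter, 2 with the spiked controls and 1 to 2 without 1 array, and 1 sterol gene rose with the spiked controls. A replicate block, although the numbers did not pair the arrays, gave 5343 changed genes, 5018 of them shared, and changed no call of these 137 named genes. The cause of these shifts was not tested. Gene medians could not be computed where a filter left no member of a list. Dim genes have the least precise values, with a median SE of 0.29 among the 2891 dimmest and 0.064 among the brightest.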
